A study of Mus musculus with 18 samples.

Results

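The genes described here encode the proteins of the large (60S) subunit of the cytosolic ribosome. They were taken as every gene whose symbol is Rpl followed by a number, with or without a final a, or Rplp0, Rplp1 or Rplp2, so paralogs with a further letter, genes with other symbols and pseudogenes are not among them. This gave 46 genes of the 29538 listed in any of the 3 expression tables. All 46 were in both mRNA tables, and 45 were in the footprint table, where Rpl24 had no entry. The cells were TC1 cells, a mouse line that the labels call fibrosarcoma, edited with a guide for Nat10 (sgNAT10) or one for Myc (sgMyc), or wild type (WT). Messenger RNA was sequenced from 2 sgNAT10 and 2 WT libraries in a first set and from 3 sgMyc and 3 WT libraries in a second. Ribosome-protected fragments (Ribo-seq) came from 2 sgNAT10 and 2 WT libraries. RNA precipitated for acetylated cytidine (acRIP-seq) came with its input from sgNAT10 and from WT, with 1 precipitate and 1 input each. Each edit was compared with unedited cells, since the labels name no control guide. The labels also do not say whether an edited line is a clone or a pool, nor whether replicates were separate cultures, so p-values measure the spread between these libraries, which may be technical.

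Ribosomal protein genes are among the most strongly expressed genes of growing cells, and their products are assembled with ribosomal RNA in the nucleolus in roughly equal amounts. Many of their mRNAs begin with a C followed by a run of pyrimidines, the 5′ terminal oligopyrimidine (TOP) tract, through which mTOR signalling sets how well they are translated. Myc is a transcription factor that binds the E box CACGTG and is known to raise the transcription of ribosomal protein and ribosome assembly genes. Nat10 is an enzyme of the nucleolus that acetylates cytidines in ribosomal RNA and transfer RNA and, as reported, in mRNA.

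The targeted genes were measured first. Nat10 mRNA stood at 3.59 and 3.95 FPKM in sgNAT10 and 5.36 and 5.30 FPKM in WT, a log2 fold change of -0.41 ± 0.059 (SE; adjusted p = 0.00266). Nat10 footprints were 8.33 and 6.60 FPKM in sgNAT10 and 11.9 and 17.4 FPKM in WT, which did not pass the test (adjusted p = 0.193). Myc stood at 21.1, 20.9 and 34.1 FPKM in sgMyc and 64.8, 61.6 and 70.8 FPKM in WT in the second set and at 40.0 and 40.9 FPKM in sgNAT10 and 115 and 117 FPKM in WT in the first. Every edited library lay below its WT libraries for these values, and sgMyc replicate 3 lay nearest to WT. That library also stood apart across all genes: its chi-square per degree of freedom against sgMyc replicates 1 and 2 was 345 and 339, while the other pairs of that set gave 8.69 to 13.3. Results on sgMyc are therefore given with and without it. Chi-square was also set against that expected from the sampling of reads, as a ratio of medians over genes. In the sgNAT10 set this ratio was 1.127 between WT and 1.315 between sgNAT10 mRNA libraries. In the sgMyc set it was 4.263 to 6.084 for pairs without sgMyc replicate 3. The standard errors of sgNAT10 mRNA thus rest on a spread near that of sampling reads. Library totals were 51875052 to 65768024 counts in the sgMyc set, and recovered reads came to 13112378 to 17033263 for mRNA and 1529610 to 3166791 for footprints. Of the fibroblast markers, Vim was high and Col1a1 stayed under 1 FPKM in every library, while the epithelial markers Cdh1 and Krt8 averaged at most 0.481 FPKM in mRNA. The summed level of the 8 fibroblast markers listed was 517 to 541 FPKM in sgNAT10 mRNA and 269.7 to 278 FPKM in WT mRNA. Most of that sum was Vim, which is also among the other TOP mRNAs used below. Of the 6 fibroblast markers tested in sgNAT10 mRNA, 4 rose and 2 fell (limma, adjusted p under 0.05). In the sgMyc set the summed fibroblast markers overlapped between genotypes, and mean Vim was lower in sgMyc than in WT. Of the 8 fibroblast markers tested there, 3 rose and 1 fell (edgeR, adjusted p under 0.05), with 7.11% and 8.86% of all genes. Without sgMyc replicate 3, 7 of 9 rose and 1 fell, with 26.6% and 26.9% of all genes. Mitochondrially encoded genes summed to 18696 to 21541 FPKM in sgMyc and 30033 to 32686 FPKM in WT. The part of these shifts in the results below was not tested.

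FPKM, a fragment count scaled to gene length and library size, is used below as the level of a gene, so genes can be compared per length. In WT cells the median large subunit gene had 359 FPKM of mRNA in the first set, 216 FPKM of footprints, and 244 FPKM of mRNA in the sgMyc set. Rplp0, the scaffold protein of the stalk on which translation factors act, was highest in mRNA of both sets, with 1529 and 1660 FPKM. Rpl8, near the catalytic centre, led the footprints with 3652 FPKM. At the low end, Rpl24, whose loss gives the belly spot and tail mouse, was listed at 0 and 0.181 FPKM in sgNAT10 and 0.177 and 0.370 FPKM in WT in the first mRNA table, too low to test, but at 249, 239 and 289 FPKM in sgMyc and 278, 288 and 278 FPKM in WT in the second. Rpl13a had a WT mean of 38.8 FPKM in the first mRNA table and 330 FPKM in the second, and for Rpl21 these means were 138 and 15.1 FPKM. The tables were made separately, and how reads of near-identical processed pseudogenes were assigned is not given in the sources used here. Rpl13a was also lowest among footprints, with 5.15 FPKM in WT and as few as 6 recovered reads in a library, whereas the other 43 genes with recovered footprints had at least 100 in every library.

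Large subunit genes were lower in sgNAT10 mRNA as a group. Of the 45 genes tested, 35 fell and 2 rose (limma on log2(FPKM + 1), Benjamini-Hochberg adjusted p under 0.05), where 29.6% of all 11735 genes fell and 33.7% rose. Their median log2 fold change was -0.31, against 0.014 over all genes. Both sgNAT10 libraries lay below both WT libraries in 38 genes and above them in 3, while 39.0% and 43.3% of all genes did so. The summed level of the 45 genes was 16116 and 15812 FPKM in sgNAT10 and 19552 and 19389 FPKM in WT. In bulk RNA, fewer cells of a kind and less RNA per cell cannot be told apart. The authors' deposited table likewise lists 35 of the 46 genes as lower and 2 as higher at an adjusted p under 0.05, with 21.7% and 22.6% of all its genes.

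The stalk proteins carry the flexible arm that recruits and activates the translational GTPases. Rplp0 mRNA stood at 1209 and 1194 FPKM in sgNAT10 and 1532 and 1526 FPKM in WT. Both sgNAT10 libraries were below both WT libraries, with a log2 fold change of -0.35 ± 0.027 (SE; adjusted p = 3.03e-04). The partners that dimerise on it moved less. Rplp1 was at 1465 and 1432 FPKM in sgNAT10 and 1449 and 1424 FPKM in WT, and the genotypes overlapped (log2 fold change 0.012 ± 0.03 SE, adjusted p = 0.737). Rplp2 stood at 151 and 145 FPKM in sgNAT10 and 166 and 166 FPKM in WT, a fall by 0.16 on the log2 scale (limma, adjusted p = 0.00651). Rpl12, which sits at the base of the stalk, went the other way, with 292 and 289 FPKM in sgNAT10 and 259.8 and 260.2 FPKM in WT. It was 1 of the 2 genes that rose, with a log2 fold change of 0.16 ± 0.025 (SE; adjusted p = 0.00351).

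Rpl5 and Rpl11 enter the ribosome together with 5S ribosomal RNA, and outside the ribosome the same particle binds the p53 regulator MDM2. Rpl5 mRNA was 198 and 194 FPKM in sgNAT10 and 313 and 314 FPKM in WT. The sgNAT10 libraries held 62.7% of the WT mean, a log2 fold change of -0.67 ± 0.026 (SE; adjusted p = 4.24e-05), second only to Rpl13a among the genes that fell. Rpl11 mRNA was 165 and 156 FPKM in sgNAT10 and 221 and 220.1 FPKM in WT, again without overlap. Its log2 fold change was -0.46 ± 0.037 (SE; adjusted p = 3.50e-04). The 3 genes counted here near the peptidyl transferase centre also fell. Rpl3 had a log2 fold change of -0.50 ± 0.025 (SE; adjusted p = 8.12e-05), Rpl8 of -0.30, and Rpl10, a protein that joins the subunit late in the cytoplasm, of -0.21.

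Around the exit tunnel, through which the new chain leaves, 6 of 8 genes fell. The largest fall there was in Rpl26 (-0.50), followed by Rpl23a (-0.49), which binds the signal recognition particle, Rpl19 (-0.42), Rpl4 (-0.31), Rpl17 (-0.25) and Rpl35 (-0.17). Rpl31 and Rpl39, at 0.019 and -0.062 on the log2 scale, did not pass. Among the other 28 genes tested, 22 fell and 1 rose. The ones that missed the threshold were Rpl32, Rpl28, Rpl30, Rpl35a and Rpl37a, with log2 fold changes from -0.085 to 0.011.

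Of all 45 genes, Rpl13a changed most. RPL13A is known in human cells to leave the ribosome and join the GAIT complex, which silences inflammatory mRNAs. Its mRNA was 19.0 and 19.6 FPKM in sgNAT10 and 38.2 and 39.4 FPKM in WT, a log2 fold change of -0.97 ± 0.036 (SE; adjusted p = 3.65e-05). Rpl23, a protein of the side of the subunit that contacts eIF6 and that in human cells also binds MDM2, was at 304 and 304 FPKM in sgNAT10 and 439 and 435 FPKM in WT, with a log2 fold change of -0.52 ± 0.025 (SE; adjusted p = 6.87e-05). Rpl9 followed with 129 and 125 FPKM in sgNAT10 and 184 and 180.1 FPKM in WT and a log2 fold change of -0.51 ± 0.029 (SE; adjusted p = 1.07e-04). None of these 3 overlapped between genotypes.

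Rpl22 rose. It encodes an RNA-binding protein of the subunit surface that is not needed for general translation in mice and that restrains its own paralog, Rpl22l1. Its mRNA was 104 and 101 FPKM in sgNAT10 and 77.0 and 77.8 FPKM in WT, a log2 fold change of 0.40 ± 0.029 (SE; adjusted p = 2.34e-04). Rpl22l1, which is not among the 46 genes, stood at 10.9 and 10.2 FPKM in sgNAT10 and 44.4 and 42.3 FPKM in WT, a log2 fold change of -1.94 ± 0.048 (SE; adjusted p = 1.49e-05). The pair thus moved in opposite directions, without overlap of the genotypes in either gene. Another paralog, Rpl7l1, an assembly factor, was higher, with a log2 change of 0.087.

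**Figure D1:**
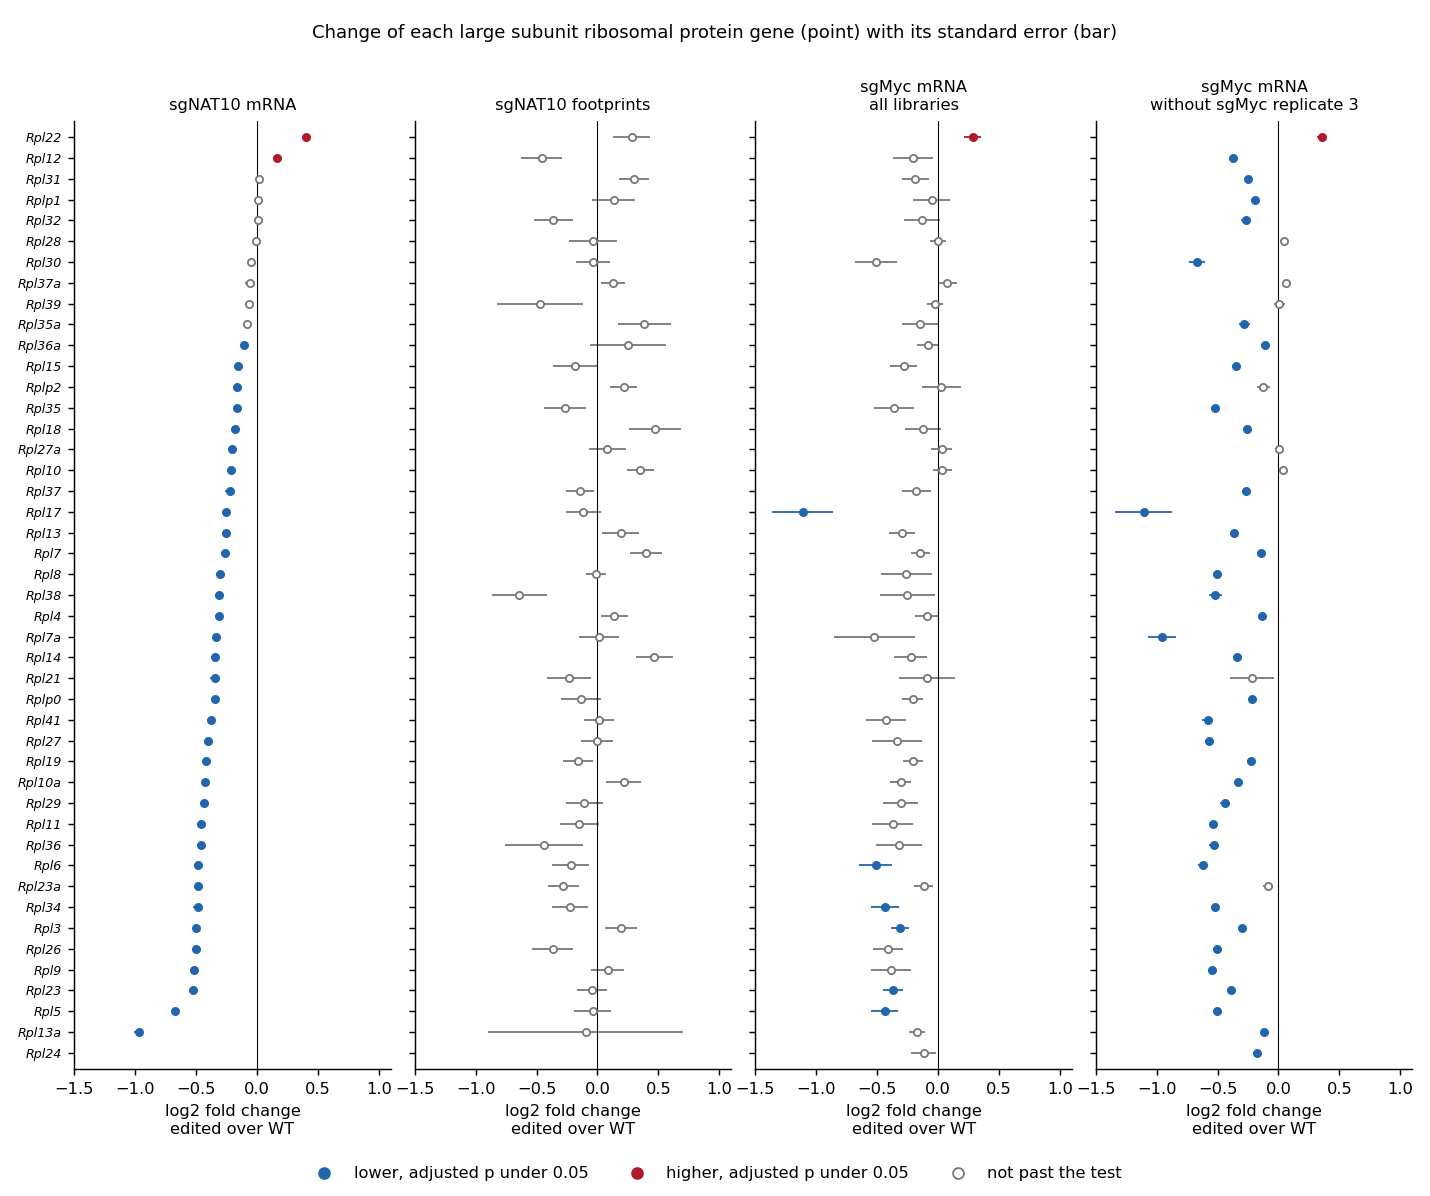
Log2 fold change, edited over WT, of each large subunit gene (points) with its standard error (bars) in 4 comparisons, ordered by the sgNAT10 mRNA change, with 1 gene not drawn. In sgNAT10 mRNA most genes lie to the left of 0 past the test and Rpl22 and Rpl12 to the right, no footprint change passes, and in sgMyc 7 genes pass with all libraries and 37 without sgMyc replicate 3.

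**Figure D2:**
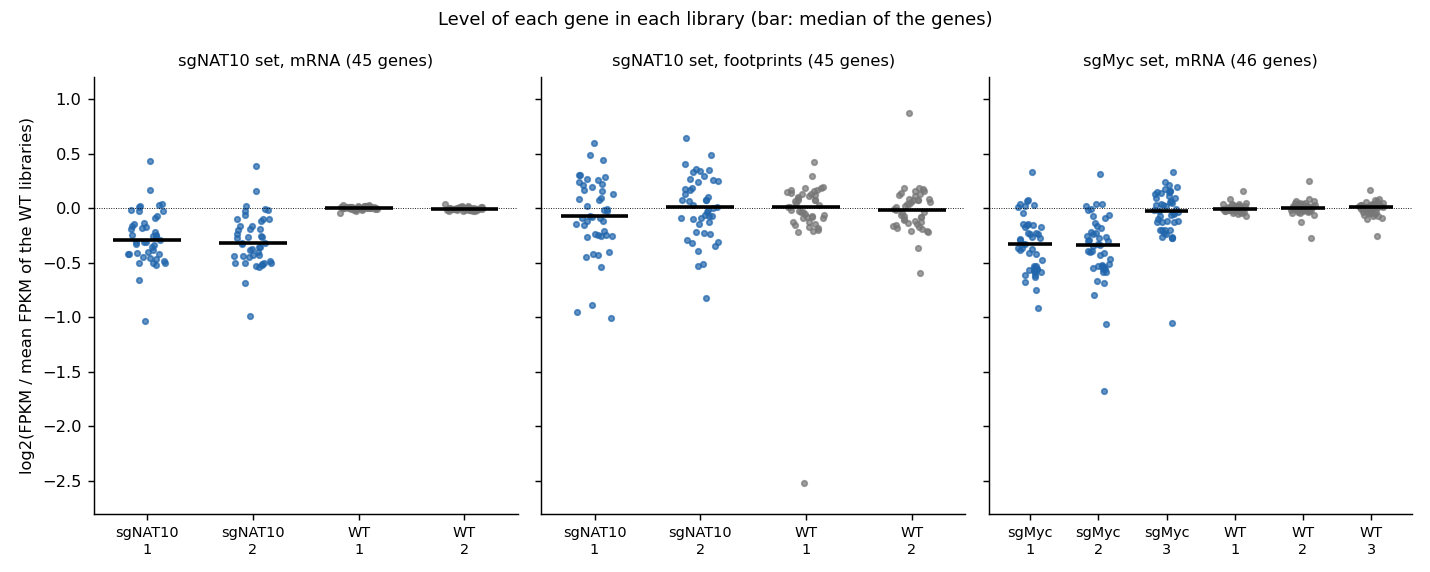
Level of each gene in each library as log2 of its FPKM over the mean of the WT libraries of the same set (points), with the median of the genes (black bars). In mRNA the medians were -0.29 and -0.32 in the sgNAT10 libraries, and -0.33, -0.34 and -0.025 in sgMyc replicates 1, 2 and 3.

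Genes that share function or control with the large subunit were set beside it by count. Of 31 small subunit protein genes, 15 fell and 2 rose in sgNAT10 mRNA, with a median log2 fold change of -0.13. The largest changes there were in Rps7 at -0.59 ± 0.033 (SE; adjusted p = 1.07e-04), and in Rps27a, a ubiquitin fusion, at -0.54 ± 0.026 (SE; adjusted p = 7.26e-05). Of 24 other mRNAs known for a TOP tract, 22 fell and 2 rose, with a median of -0.36. They were led by Rack1, a small subunit scaffold (-1.09), and Eef2, the translocation factor (-0.91). Of 39 tested factors that assemble the large subunit, 24 fell and 2 rose, with a median of -0.25. The AAA ATPase Mdn1 (-0.91) and the rRNA processing factor Pes1 (-0.80) moved most. Named pseudogene copies of large subunit genes were counted too, since reads can be shared with them. Of 49 tested, 12 fell and 1 rose, with a median of -0.21, and in 9 of 26 genes with listed copies the copies held over 10% of the gene's own WT level.

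The start of transcription of these genes is shown because the TOP tract lies there. RefSeq promoter windows on GRCm38.p6, of 250 bases before to 50 after an annotated start, matched 34 of the 46 genes by symbol. A run of C followed by at least 6 pyrimidines (C or T) on the transcribed strand, beginning within 10 bases of the start, occurred in 16 of the 34 genes, or 47.1%, against 14.1% of 27025 genes with a window. The start regions of 8 of them are given from 20 bases before to 20 bases after the annotated start, with the run in capitals.
Rplp2, chr7:141447631-141447670, plus strand: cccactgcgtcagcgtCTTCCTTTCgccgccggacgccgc
Rpl14, chr9:120571497-120571536, plus strand: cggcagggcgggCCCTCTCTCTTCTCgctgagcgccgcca
Rpl15, chr14:18270967-18271006, minus strand: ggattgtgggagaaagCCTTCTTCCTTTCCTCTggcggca
Rpl27a, chr7:109519175-109519214, plus strand: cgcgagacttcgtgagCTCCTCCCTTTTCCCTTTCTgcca
Rpl28, chr7:4792945-4792984, plus strand: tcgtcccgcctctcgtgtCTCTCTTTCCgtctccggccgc
Rpl35, chr2:39005112-39005151, minus strand: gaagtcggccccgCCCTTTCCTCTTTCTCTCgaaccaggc
Rpl35a, chr16:33056462-33056501, plus strand: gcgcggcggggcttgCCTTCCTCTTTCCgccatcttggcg
Rpl38, chr11:114668560-114668599, plus strand: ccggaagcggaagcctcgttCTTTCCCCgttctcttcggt
Within this group the runs differ in length, and sgNAT10 changes differed as well. On the log2 scale Rpl14 fell by 0.35, Rpl38 by 0.31, Rpl27a by 0.21, Rpl35 by 0.17, Rplp2 by 0.16 and Rpl15 by 0.15. Rpl28 (-0.0079) and Rpl35a (-0.085) did not pass. The genes with a run whose start is not shown ran from -0.97 (Rpl13a) to 0.019 (Rpl31). Among them Rpl34 was at -0.49 and Rpl10a and Rpl19 at -0.42. The median log2 fold change in sgNAT10 mRNA was -0.19 over the 16 genes with such a run and -0.35 over the 17 genes without one that could be tested. An annotated start need not be the start used in these cells.

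Footprints count the ribosomes on an mRNA, so they report the synthesis of these proteins more nearly than mRNA does. In sgNAT10, no large subunit gene passed the test in footprints (0 of 45, limma, adjusted p under 0.05), where 1.28% of all 9707 genes were called lower and 1.81% higher. At an unadjusted p under 0.05 there were 6, of which 4 had higher values, Rpl7, Rpl10 and Rpl14 among them, and Rpl12 and Rpl38 had lower values, while 10.5% of all genes were higher and 10.2% lower by that rule. A count test on recovered reads (edgeR) called 1 of 44, Rpl7, with a log2 fold change of 0.40 (adjusted p = 0.0418), where it called 3.84% of 9843 genes higher and 3.76% lower. The median log2 fold change was -0.036, and the median standard error of 0.15 was larger than that of the mRNA changes, 0.029. The sgNAT10 libraries lay below WT in 9 genes, above WT in 13 and overlapped WT in 23, while 25.6% of all genes lay below and 25.6% above. The authors' deposited table lists 1 gene lower (Rpl12) and 4 higher (Rpl7, Rpl10 and Rpl14 among them) in footprints, with 7.65% and 7.45% of its genes.

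Rpl10 had the lowest p-value. Its footprints were 482 and 516 FPKM in sgNAT10 and 394 and 386 FPKM in WT, so both sgNAT10 libraries were above both WT libraries, with a log2 fold change of 0.35 ± 0.11 (SE; adjusted p = 0.148). The 5S particle genes overlapped between genotypes. Rpl5 footprints were 109.8 and 122 FPKM in sgNAT10 and 127 and 111 FPKM in WT, with overlap (-0.038 ± 0.15 SE, adjusted p = 0.914). Rpl11 footprints were 301 and 339 FPKM in sgNAT10 and 310.2 and 404 FPKM in WT, overlapping too (-0.15 ± 0.16 SE, adjusted p = 0.668).

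For the stalk, Rplp0 had 466 and 544 FPKM in sgNAT10 and 483 and 632 FPKM in WT, and the genotypes overlapped (log2 fold change -0.13 ± 0.16 SE, adjusted p = 0.701). Rplp1 had 196 and 236 FPKM in sgNAT10 and 174 and 221 FPKM in WT, with overlap (0.13). Rplp2 had 359 and 369 FPKM in sgNAT10 and 305 and 321 FPKM in WT, with both sgNAT10 libraries above WT, though the log2 fold change of 0.22 ± 0.11 (SE; adjusted p = 0.345) did not pass. Rpl38, which in mice is needed for the translation of Hox mRNAs, had the lowest fold change, with 1090.5 and 894 FPKM in sgNAT10 and 1935 and 1230.3 FPKM in WT and -0.64 ± 0.23 (SE; adjusted p = 0.185). Rpl13a, at 2.78 and 3.56 FPKM in sgNAT10 and 0.900 and 9.40 FPKM in WT, was too thinly covered to read.

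Ribosome load, here footprint FPKM over mRNA FPKM, sets both assays against each other. In WT the median load of the 45 genes was 0.585, against 1.16 over 9012 genes with at least 1 FPKM in both, and 13 of the 45 exceeded that value. Load across genes also carries how each assay's reads were assigned to near-identical copies, so it does not measure translation alone. Of 130 named pseudogene copies, 49 were tested in sgNAT10 mRNA and 3 in footprints. Loads ran from 0.133 to 7.55, and log2 levels in mRNA and footprints had a Pearson r of 0.63 and a Spearman rho of 0.51 across the 45 genes, which are not independent replicates. In sgNAT10 the median load was 0.704. No gene passed the test of the genotype by assay interaction (0 of 45, limma; 0.0326% of all 9200 genes were called, all lower). The log2 change in load was above 0 in 37 of 45 genes, with a median of 0.29 against -0.020 over all genes. At an unadjusted p under 0.05 there were 16 genes with higher load and 1 with lower load, Rpl12, where 4.09% of all genes had higher and 4.01% lower load. For Rpl12 the footprints were 86.7 and 81.8 FPKM in sgNAT10 and 104 and 129.9 FPKM in WT, so they lay below WT while its mRNA lay above, and the load was 0.290 in sgNAT10 and 0.449 in WT.

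Rpl3, whose mRNA was 316 and 316 FPKM in sgNAT10 and 444 and 450.2 FPKM in WT and whose footprints were 199 and 216 FPKM in sgNAT10 and 173 and 189 FPKM in WT, had a load of 0.656 in sgNAT10 and 0.405 in WT and a log2 change of 0.69 ± 0.14 (SE; adjusted p = 0.171). Rpl3 passed in a count model of recovered reads (edgeR, log2 change 0.72, adjusted p = 0.0412), which called 0.0727% of all genes higher and 0.114% lower. Among the named genes, Rpl5 load was 0.589 in sgNAT10 and 0.380 in WT, Rpl11 load 1.99 in sgNAT10 and 1.62 in WT, and Rplp0 load 0.420 in sgNAT10 and 0.365 in WT. For Rplp1 it was 0.149 in sgNAT10 and 0.137 in WT, and for Rplp2 2.45 in sgNAT10 and 1.88 in WT. The log2 changes in load of these 5 were 0.63, 0.31, 0.21, 0.12 and 0.38. Small subunit genes had a median of 0.31 and other TOP mRNAs of 0.27, while large subunit assembly factors had -0.038, and none of these differences between lists was tested. Load carries the mRNA value in its denominator, so genes whose mRNA fell with steady footprints show a higher load by construction. Across the 45 genes, mRNA and footprint changes had a Pearson r of 0.14 and a Spearman rho of 0.19.

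**Figure D3:**
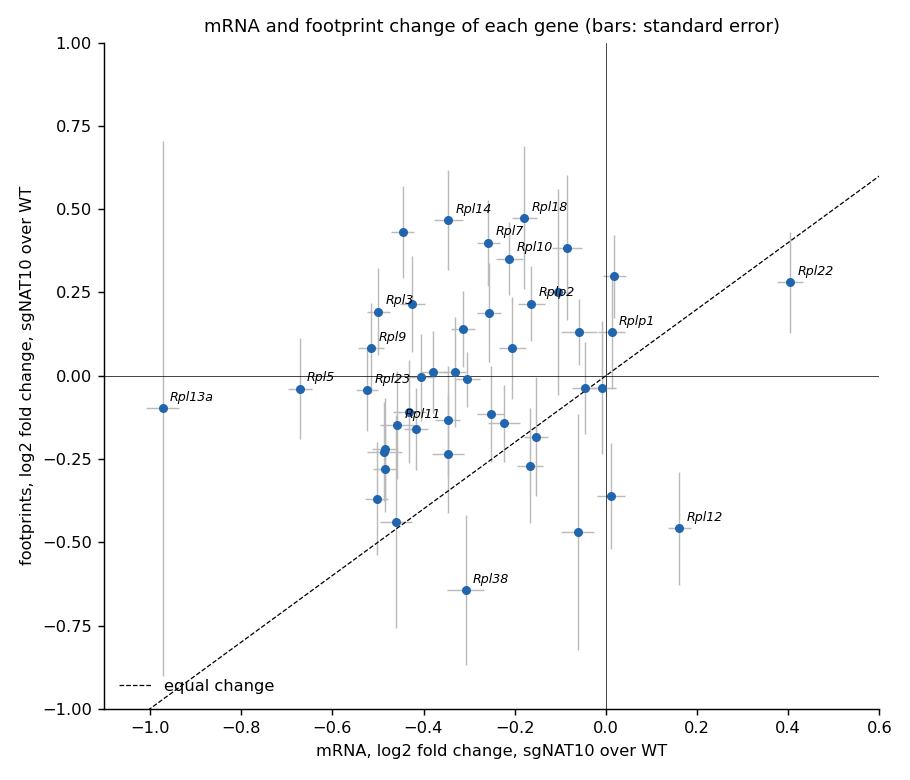
Footprint log2 fold change (vertical) against mRNA log2 fold change (horizontal), sgNAT10 over WT, for 45 genes with standard errors as bars and a dashed line of equal change. Of the points, 37 lie above the line, and the vertical bars (median 0.15) are longer than the horizontal ones (median 0.029).

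The guide against Myc was measured in its own set. With all libraries, 6 of 46 genes fell and 1 rose in sgMyc mRNA (edgeR quasi-likelihood test, Benjamini-Hochberg adjusted p under 0.05), where 8.86% of 16794 genes fell and 7.11% rose. The median log2 fold change was -0.21, against -0.028 over all genes. Without sgMyc replicate 3, 36 fell and 1 rose, with a median of -0.29, where 26.9% of 17485 genes fell and 26.6% rose. The count also rested on other libraries: 1 gene passed without sgMyc replicate 1, and 0 passed without sgMyc replicate 2 or without any 1 of the 3 WT replicates (edgeR; 9 genes at an unadjusted p under 0.05 in each of these 4 fits, with 21.4% to 23.5% of all genes). DESeq2 with all libraries called 7 genes, where it called 8.35% of all genes lower and 10.3% higher. With limma on log2(FPKM + 1) 8 were called, where 9.09% of all genes were lower and 6.32% higher. In replicate 3, 39 of the 46 genes were above both other sgMyc libraries, and 17 were above all WT libraries. All sgMyc libraries lay below all WT libraries in 20 genes and above in 1, while 21.0% and 19.1% of all genes did so. Without replicate 3 these counts were 38 and 2, and the shares of all genes were 42.3% and 35.6%.

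The genes that fell with all libraries were Rpl17, Rpl6, Rpl5, Rpl34, Rpl23 and Rpl3. Rpl5 stood at 203, 201 and 244 FPKM in sgMyc and 286, 293 and 299.6 FPKM in WT, with no overlap and a log2 fold change of -0.44 ± 0.11 (SE; adjusted p = 0.0432; without replicate 3, -0.50, adjusted p = 1.09e-06). Rpl6 stood at 201, 191 and 253 FPKM in sgMyc and 299, 300.5 and 321 FPKM in WT, with a log2 fold change of -0.51 ± 0.13 (SE; adjusted p = 0.0494; without replicate 3, -0.62, adjusted p = 2.43e-06). Rpl34 stood at 52.3, 53.7 and 65.8 FPKM in sgMyc and 76.5, 77.3 and 79.3 FPKM in WT, with -0.44 ± 0.11 (SE; adjusted p = 0.0493; without replicate 3, -0.52, adjusted p = 1.60e-06). For these 3 genes sgMyc replicate 3 was the highest sgMyc library yet below every WT library. Rpl23 and Rpl3 had log2 fold changes of -0.37 and -0.31.

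Rpl17, at the exit tunnel, had the lowest fold change, but reads of near-identical copies bear on it. Its own level was 156, 82.3 and 126 FPKM in sgMyc and 256, 311 and 221 FPKM in WT, a log2 fold change of -1.11 ± 0.25 (SE; adjusted p = 0.0312; without replicate 3, -1.11, adjusted p = 0.00335). The summed level of its 7 named pseudogene copies, in counts scaled to library size (CPM), was 389, 497 and 457 CPM in sgMyc and 346, 275 and 398 CPM in WT, so the copies were higher in 2 of 3 sgMyc libraries than in every WT library. With gene and copies added, the level was 619, 619 and 644 CPM in sgMyc and 721, 731 and 721 CPM in WT. That sum was lower in each sgMyc library, by 0.22 on the log2 scale (edgeR, adjusted p = 0.0847; without replicate 3, adjusted p = 0.000144). In this table, by summed FPKM, copies held over 10% of the gene's own WT level in 19 of 35 genes. Such shares depend on the unit: for Rpl17 the share was 209% in FPKM and 88.4% in CPM. With copies added for every gene, 5 genes fell and 1 rose (edgeR), where 8.90% of all genes fell and 7.15% rose. Without replicate 3 these counts were 37 and 1, where 27.1% of all genes fell and 26.7% rose.

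Rpl22 was the gene that rose, at 104, 103 and 95.8 FPKM in sgMyc and 83.8, 85.1 and 78.5 FPKM in WT, without overlap and with a log2 fold change of 0.29 ± 0.07 (SE; adjusted p = 0.0393; without replicate 3, 0.35, adjusted p = 4.29e-05). Its paralog Rpl22l1 stood at 6.61, 7.25 and 5.93 FPKM in sgMyc and 14.6, 14.5 and 15.5 FPKM in WT, a log2 fold change of -1.18 ± 0.10 (SE; adjusted p = 0.00159). The pair therefore had the same opposed directions as in sgNAT10. Rpl21, the gene of lowest level in this table, was at 15.9, 9.56 and 17.1 FPKM in sgMyc and 14.7, 13.8 and 16.9 FPKM in WT and overlapped.

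The remaining named genes missed the threshold with all libraries. Rpl11 stood at 129, 127 and 183 FPKM in sgMyc and 184, 189.7 and 195 FPKM in WT, with a log2 fold change of -0.37 ± 0.17 (SE; adjusted p = 0.19; without replicate 3, -0.54, adjusted p = 1.42e-06). Rplp0 stood at 1408, 1384 and 1523 FPKM in sgMyc and 1654, 1639.6 and 1686 FPKM in WT, with -0.21 ± 0.086 (SE; adjusted p = 0.161; without replicate 3, -0.22, adjusted p = 1.39e-04). In both, sgMyc replicate 3 lay nearer to WT than replicates 1 and 2. Rplp1 was at 1045, 1047 and 1439.7 FPKM in sgMyc and 1247, 1234 and 1187 FPKM in WT, so replicate 3 was above WT and the others below, with -0.051 ± 0.15 (SE; adjusted p = 0.858; without replicate 3, -0.19, adjusted p = 5.97e-04). Rplp2 was at 77.8, 85.7 and 114 FPKM in sgMyc and 90.5, 96.3 and 86.5 FPKM in WT, again with overlap, and 0.028 ± 0.16 (SE; adjusted p = 0.93; without replicate 3, -0.13, adjusted p = 0.0709).

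Of the lists set beside them, small subunit genes had 0 of 31 called in sgMyc (edgeR). At an unadjusted p under 0.05 there were 5 of them, with 31.0% of all genes. Without replicate 3, 21 small subunit genes fell and 2 rose. Other TOP mRNAs had 7 that fell and 0 that rose of 24 (19 and 2 without replicate 3), led by Rack1 (-0.95) and the poly(A) binding protein gene Pabpc1 (-0.71). Assembly factors had 0 that fell and 2 that rose of 40, the helicase gene Ddx24 (0.91) and Brix1 (0.33), an rRNA-binding factor, whereas 32 fell and 3 rose without replicate 3.

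The E box that Myc binds is shown for the genes that carry it near an annotated start. CACGTG, which reads the same on both strands, was found in the windows of 5 of the 34 matched genes, or 14.7%, against 8.09% of 27025 genes. E box letters are in capitals, with up to 20 bases on each side, on the strand of the gene.
Rpl13a, chr7:45128920-45128965, minus strand: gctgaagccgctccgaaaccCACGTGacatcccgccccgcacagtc
Rpl14, chr9:120571329-120571374, plus strand: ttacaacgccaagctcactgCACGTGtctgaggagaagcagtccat
Rpl19, chr11:98026671-98026716, plus strand: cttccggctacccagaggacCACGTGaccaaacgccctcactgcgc
Rpl23, chr11:97782420-97782462, minus strand: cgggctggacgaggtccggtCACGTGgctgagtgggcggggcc
Rpl34, chr3:130730528-130730573, minus strand: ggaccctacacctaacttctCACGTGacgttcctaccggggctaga
For Rpl23 it spans the annotated start itself, and in the other 4 it lies upstream of it. Of these 5 genes, Rpl23 and Rpl34 fell in sgMyc with all libraries, and Rpl13a (-0.17), Rpl14 (-0.22) and Rpl19 (-0.21) did not pass. The median log2 fold change was -0.22 over the 5 genes with the E box and -0.21 over the 29 without, and -0.34 and -0.28 without sgMyc replicate 3. Where no match was found, this says only that these letters are not in the window.

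Both edits were then compared with each other. The 6 genes that fell in sgMyc all fell in sgNAT10 as well, and they make up 17.1% of the 35 sgNAT10 genes. Over 10867 genes tested in both, 5.80% fell in both, or 67.5% of those that fell in sgMyc and 19.1% of those that fell in sgNAT10. Without sgMyc replicate 3, 29 large subunit genes fell in both, or 80.6% of 36 and 82.9% of 35. Over all genes 17.1% then fell in both, or 51.1% of those that fell in sgMyc and 56.4% of those that fell in sgNAT10. The changes had a Pearson r of 0.41 and a Spearman rho of 0.52 over 45 genes (0.34 and 0.35 without replicate 3), a description across genes that share a cell line. When the effects themselves were tested against each other (limma, set by edit interaction), 4 genes changed more negatively in sgNAT10 and 2 more positively, where 9.73% and 18.7% of 10265 genes did so. Without sgMyc replicate 3 these were 11 and 17, with 23.4% and 36.5%. With median scaling they were 7 and 1. Leaving out another library also lowered the count below 6, to 3 without sgMyc replicate 1, WT replicate 3 of that set, sgNAT10 replicate 2, or either WT replicate of the sgNAT10 set, to 2 without WT replicate 1, and to 1 without WT replicate 2 of the sgMyc set.

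Rpl13a differed most steadily. Its log2 fold changes were -0.97 in sgNAT10 and -0.17 in sgMyc, and the difference was -0.80 ± 0.075 (SE; adjusted p = 1.27e-04). In the second set its level was 299, 295 and 287 FPKM in sgMyc and 327, 334 and 329 FPKM in WT, below WT in each library. The difference passed in all 17 alternatives tried, but the gene's level differed between the tables, as given above. Rpl23a differed by -0.37 ± 0.08 (SE; adjusted p = 0.00954) with changes of -0.49 in sgNAT10 and -0.12 in sgMyc, and passed in 14 of 17. Its mRNA was 833 and 832 FPKM in sgNAT10 and 1169.8 and 1161 FPKM in WT in the first set and 682, 737 and 710.4 FPKM in sgMyc and 793, 739 and 777 FPKM in WT in the second, without overlap in either.

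The remaining differences were less steady. Rpl10 differed by -0.25 ± 0.078 (SE; adjusted p = 0.0447), with changes of -0.21 in sgNAT10 and 0.037 in sgMyc (6 of 17). Its mRNA was 403 and 389.5 FPKM in sgNAT10 and 459 and 459 FPKM in WT in the first set, without overlap, and 458, 442 and 476 FPKM in sgMyc and 443, 454 and 445 FPKM in WT in the second, with overlap. For Rpl17 the difference was 0.89 ± 0.25 (SE; adjusted p = 0.0271), with -0.25 in sgNAT10 and -1.11 in sgMyc (8 of 17), and it carries the limit on copies given above. In the first set Rpl17 was 569 and 562 FPKM in sgNAT10 and 684 and 663 FPKM in WT. With copies added, the log2 ratio of group means for Rpl17 was -0.24 in sgNAT10 (FPKM) and -0.21 in sgMyc (CPM). The difference between edits with copies added was not tested. For Rpl30 the difference was 0.48 ± 0.16 (SE; adjusted p = 0.0483), with -0.046 in sgNAT10 and -0.51 in sgMyc (4 of 17). Its mRNA was 129 and 125 FPKM in sgNAT10 and 131 and 131 FPKM in WT in the first set and 44.8, 39.6 and 59.9 FPKM in sgMyc and 72.9, 68.9 and 64.2 FPKM in WT in the second, and the genotypes did not overlap. Among the stalk and 5S genes, the differences of Rplp0 (-0.14), Rplp1 (0.083), Rplp2 (-0.17), Rpl5 (-0.23) and Rpl11 (-0.063) did not pass.

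**Figure D4:**
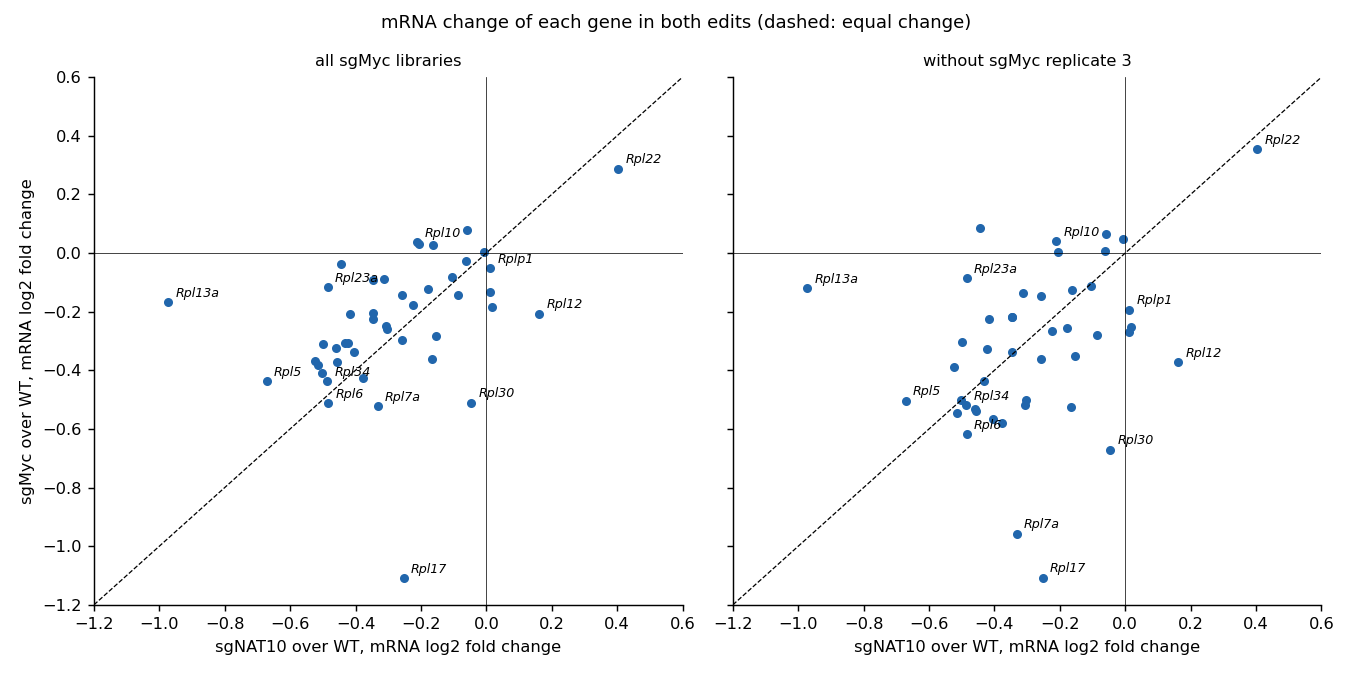
Log2 fold change of each of 45 genes in sgMyc mRNA (vertical) against sgNAT10 mRNA (horizontal), with all sgMyc libraries on the left and without sgMyc replicate 3 on the right, and a dashed line of equal change. Rpl13a lies above the line and Rpl17 and Rpl30 below it in both panels, and Rpl22 is above 0 in both edits.

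Acetylated cytidine in RNA was mapped by acRIP-seq, whose deposited peak table gives a fold enrichment of precipitate over input and a log2 difference between genotypes for each peak. These are the authors' values, from 1 precipitate and 1 input per genotype, so they carry no replicate check, and the header does not state which genotype is on top of the difference. Of 1358 peaks, 42 lay in 32 of the 46 genes. Among peaks the authors classed, 17 were in coding sequence, 23 in exons, 1 in a 3′ untranslated region (Rpl22) and 1 in a 5′ untranslated region (Rpl32). Enrichment ran from 1.18 to 9.03-fold, with a median of 1.90-fold against 1.76-fold over all other peaks, and 28 peaks were under 2-fold. The Rpl30 peak had an authors' log10 false discovery rate of -0.57, which does not reach 0.05. The share of genes with a peak was 69.6%, against 7.82% of other genes at 1 FPKM or more in WT. At 200 FPKM or more it was 73.5% of 34 large subunit genes and 68.9% of 119 other genes, and no test was made of this.

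The most enriched peak was in Rpl19, an exit tunnel protein, at chr11:98028111-98030463 (mm10), with 9.03-fold and a difference of -0.05. Rpl18 followed with 5.01-fold at chr7:45719862-45720161 (difference 0.46). On the stalk, the peaks of Rplp0 at chr5:115559742-115563520 and of Rplp1 at chr9:61913343-61914542 had 2.53-fold and 2.23-fold enrichment and differences of -0.067 and -0.051. Rplp2 held a pair of peaks, with 1.28-fold and 1.96-fold. Rpl5 had 1.92-fold at chr5:107903727-107903996 (difference -0.27), and Rpl11 had no listed peak. Genes with 1 peak of at least 2-fold enrichment included Rpl10, Rpl18, Rpl19, Rpl41, Rpl8, Rplp0 and Rplp1. Those with 1 peak of lower enrichment were Rpl13a, Rpl17, Rpl22, Rpl28, Rpl30, Rpl32, Rpl35, Rpl35a, Rpl36, Rpl36a, Rpl37, Rpl37a, Rpl38, Rpl4, Rpl5 and Rpl6. A pair of peaks was listed in Rpl12, Rpl14, Rpl26, Rpl27a, Rpl7a and Rplp2, and 3 peaks in Rpl13 and Rpl3.

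Differences between genotypes were small in most of these peaks, with a median size of 0.27 on the log2 scale against 0.71 over all other peaks. Small subunit genes had a similar median size, 0.23 over 28 peaks. In large subunit genes the differences ran from -0.61 in Rpl22 to 1.29 in Rpl14 at chr9:120573817-120574300. By the authors' false discovery rate of at most 0.05, 31 of 42 differed (73.8%, against 65.3% of all peaks), 19 with a positive and 12 with a negative value. Changes of mRNA in sgNAT10 were set beside the peaks. The median log2 fold change was -0.25 over the 32 genes with a peak, of which 24 fell, and -0.42 over the 13 tested genes without, of which 11 fell. In the table, 38 of the 42 peaks lay inside the RefSeq gene of that name on mm10, and the others were in Rpl12, Rpl3, Rplp1 and Rplp2.

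**Figure D5:**
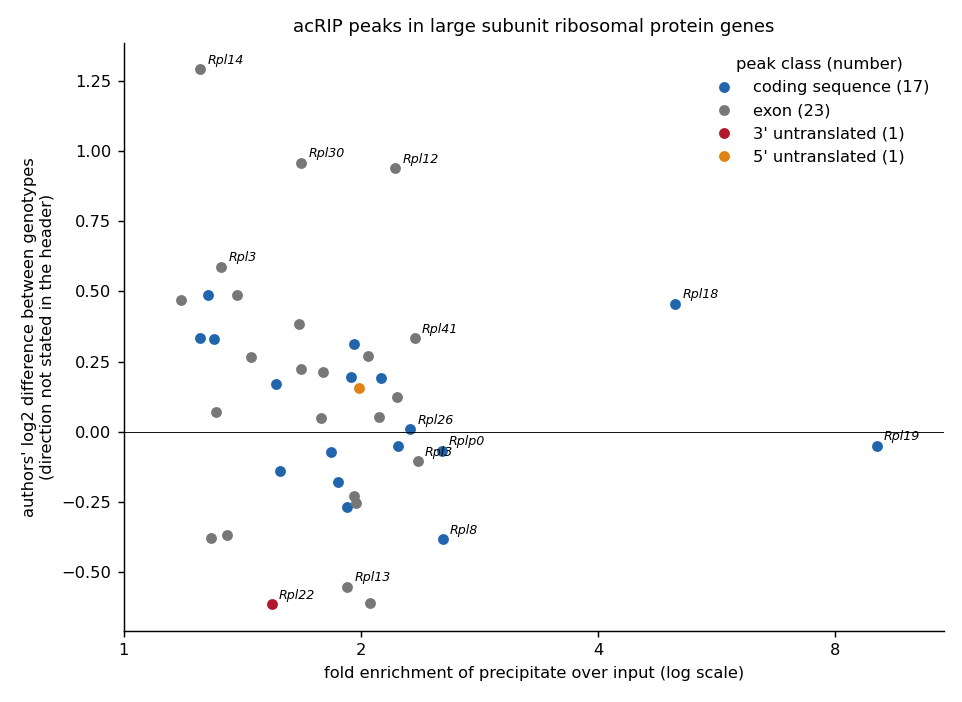
Each of the 42 acRIP peaks by its fold enrichment of precipitate over input (horizontal, log scale) and the authors' log2 difference between genotypes (vertical, direction not stated), coloured by class. Most peaks lie near 2-fold, and Rpl19 (9.03-fold) and Rpl18 (5.01-fold) lie apart in enrichment.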

How the data were processed

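Per the submitters' processing notes, FastQC, Trim Galore, Bowtie2, featureCounts and mm10 were used, with no order or version given. Per the file headers, the deposited sgMyc table holds counts and FPKM. The other expression tables hold FPKM with the authors' log2 fold change and p-value, from a test not given in the sources used here. The deposited acRIP table gives each peak a fold enrichment, a log2 fold difference and log10 scores.

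Log2(FPKM + 1) was tested with limma 3.58.1 (trend), leaving out genes whose mean was under 1 FPKM, and this scale understates changes of low genes. Load and the difference between edits were limma interactions with array weights. Counts were tested with edgeR 4.0.16 (filterByExpr, TMM, quasi-likelihood F test), with the standard errors that F implies. Benjamini-Hochberg adjustment covered all genes of a fit. Whole reads came from FPKM ratios between libraries (tolerance 1e-12), for 99.6% of mRNA and 99.9% of footprint genes. The methods were tested on simulated data with changes larger than most reported here, so this does not show how well smaller changes are detected.

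Genes and lists were chosen with earlier results of these data known. Library values are given for Rplp0, Rplp1, Rplp2, Rpl5, Rpl11, the 4 largest changes each way past a test without overlap, the 2 lowest p-values where fewer than 2 passed, and the highest and lowest level per table. Genes with an acRIP peak are named, and other lists give their 2 largest changes past the test. Some genes that the rule names are not reported here. Members named outside this rule were chosen after their values were seen. Alternatives changed the pseudocount, filter, scaling, tool, replicate block and each library in turn.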

Additional observations from a re-analysis of the deposited data

Results flagged for a closer look

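The mRNA response of large subunit genes differed in the following cases between the edits by the test of the difference itself (limma interaction, adjusted p under 0.05), with values given as the sgNAT10 effect minus the sgMyc effect on the log2 scale. The difference was -0.80 for Rpl13a, -0.37 for Rpl23a and -0.25 for Rpl10, so sgNAT10 mRNA changed more negatively. It was 0.89 for Rpl17 and 0.48 for Rpl30, where sgMyc mRNA changed more negatively. The level of Rpl13a differed between both mRNA tables, and the Rpl17 value leaves out its pseudogene copies, which were higher in 2 of 3 sgMyc libraries. With copies added, the log2 ratio of group means for Rpl17 was -0.24 in sgNAT10 (FPKM) and -0.21 in sgMyc (CPM), and their difference was not tested.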

How the results depend on the processing

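The count of 37 called genes in sgNAT10 mRNA ranged from 36 to 41 over the alternatives tried. The footprint count of 0 held in all but a count test of recovered reads (edgeR), which gave 1, and the load count of 0 held in all but a minimum mean of 5 FPKM and that count test, with 1 each (limma and edgeR). Leaving out each library in turn gave 0 to 0 for footprints and load, 36 to 37 for sgNAT10 mRNA, 0 to 37 for sgMyc mRNA, and 1 to 28 for the difference between edits. In sgMyc mRNA the count of 7 became 1 with no filter on low counts, where 3.69% of all genes fell and 3.01% rose. It became 38 without sgMyc replicate 3 with copies added. The count of 6 differences became 1 with no filter, and 2 without array weights. The cause was not tested.

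Within a set, replicate numbers did not pair edited with WT libraries, since same-numbered libraries deviated together with correlations of 0.0079, 0.0245 and -0.0181 to 0.0101. For load, the block paired mRNA with Ribo-seq libraries of the same number, and whether those deviated together was not measured. With the replicate number as a block, 37 genes passed in sgNAT10 mRNA (limma), where 29.0% of all genes were lower and 32.6% higher. In footprints 0 passed (limma), where 1.01% of all genes were lower and 1.46% higher. In load 0 passed (limma), as over all genes. There 2 had an unadjusted p under 0.05, with 7.28% of all genes, where the fit without the block had 17. In sgMyc mRNA 0 passed (edgeR), where 4.01% of all genes were lower and 2.43% higher. At an unadjusted p under 0.05 there were 15, with 25.9% of all genes. In the difference between edits 1 passed (limma), where 6.93% of all genes were lower and 13.9% higher.

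Among the genes followed, each alternative was set against the main fit, and none changed sign where either fit passed the test. In 9 cases a log2 fold change had the other sign in an alternative where both fits missed the test, and the cause was not tested. Among these, Rplp1 in sgMyc (-0.051 in the main fit) passed in another alternative, without replicate 3, at -0.19. In sgNAT10 mRNA, Rplp1 (0.012) became -0.046 with median scaling and -0.043 with quantile normalization. Rplp0 footprints (-0.13) became 0.016 with quantile normalization. Rplp2 in sgMyc (0.028) became -0.13 without replicate 3, with or without copies added. The other sign changes came from leaving out 1 library. The log2 fold change then ran from -0.0040 to 0.029 for Rplp1 in sgNAT10 mRNA, and in footprints from -0.34 to 0.042 for Rpl11, -0.13 to 0.058 for Rpl5, -0.33 to 0.059 for Rplp0 and -0.038 to 0.30 for Rplp1. It ran from -0.050 to 0.29 for Rplp1 load, from -0.19 to 0.059 for Rplp1 and -0.13 to 0.17 for Rplp2 in sgMyc, and from -0.16 to 0.11 for Rpl11 in the difference between edits.

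The common coefficient of variation between libraries was 0.357 in footprints and 0.0266 in sgNAT10 mRNA, and the sgMyc value of 0.245 includes replicate 3. In footprints the lowest read count of a member had a median of 711, and 1 of 44 members had under 100 reads in a library.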
